A study of Mus musculus with 8 samples.

Results

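The MOR28 cluster is a tight group of 7 odorant receptor genes, Olfr1507 to Olfr1513, on mouse chromosome 14. Its members were selected on the symbols of the 7 genes in the deposited expression table, with their values in the same 8 libraries known, so their levels and differences are given as a description, without p-values, and where a fit over all genes called a member, that call is no independent evidence. They are 7 of 21765 genes in the table and 7 of its 1193 odorant receptor genes. All 7 passed the minimum mean of 1 in TPM (transcript abundance per length, scaled to a sum of 1000000 in each library).

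RNA bound to ribosomes was sequenced from the main olfactory epithelium, the sheet of nasal tissue that holds the olfactory sensory neurons. Lysates of tissue treated with cycloheximide at 100 µg/mL, which holds ribosomes on mRNA, were separated on sucrose gradients. Fractions 27 to 34 were pooled as early polysomes and the denser fractions 35 to 42 as late polysomes, where mRNAs carry more ribosomes. Wild-type (WT) mice were Mex3a flox/flox or Mex3a flox/+ without Cre, so the WT group mixes both genotypes, and conditional knockout (cKO) mice were Mex3a flox/flox with Cre. The 2 genotypes and 2 fractions make 4 groups with 2 libraries each, and the 2 libraries of a group came from lysates with different names. The age and sex of the mice and the number of mice behind a lysate are not given in the sources used here, so the spread between libraries may be partly technical.

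An odorant receptor is a G protein-coupled receptor in the cilia of olfactory sensory neurons, and a mature neuron expresses a single allele of a single receptor gene. The choice depends on Lhx2, Ldb1 and Ebf factors bound at enhancers that gather from many chromosomes. The H enhancer, the best studied of these, lies beyond the Olfr1507 end of the MOR28 cluster and is known to be needed in cis for the genes closest to it. Olfr1507 encodes MOR28, a receptor of the ventral epithelium that has long served as a model of receptor choice. The level of a receptor mRNA in tissue therefore depends on how many neurons chose the gene and on how much RNA each of them holds. The libraries hold only RNA from polysome fractions, so how much of the mRNA is on polysomes also enters the levels given here. In these bulk libraries the number of cells, the RNA per cell and the part on polysomes cannot be told apart.

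The genes lie in numerical order over 148.3 kb at chr14:52347495-52495749 (GRCm38, GENCODE annotation), with Olfr1507 at the high-coordinate end. Olfr1509 is on the plus strand and the other 6 are on the minus strand. Counted from the start of Olfr1507, gene starts follow at 28.3 kb for Olfr1508, 52.8 kb for Olfr1509, 81.4 kb for Olfr1510, 98.4 kb for Olfr1511, 116.6 kb for Olfr1512 and 139.3 kb for Olfr1513. Each gene has at least 2 exons in its longest model, and the coding sequences hold 927 to 957 bases. RefSeq synonyms place Olfr1507 (MOR28), Olfr1508 (MOR10) and Olfr1509 (MOR83) in the MOR244 family, and Olfr1510 to Olfr1513 in the MOR223 family. Coding GC content is 45.2% to 46.0% in the first family and 51.0% to 52.3% in the second.

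To show how close the members are, the same 60 coding bases are given for 6 of them, around the codons of the aspartate-arginine-tyrosine motif that odorant receptors share at the inner end of a transmembrane helix. They were read from the GRCm38 genome, 5′ to 3′ on the coding strand, and capitals mark bases that differ from Olfr1507. Olfr1511 has the same 60 bases as Olfr1510.
Olfr1507: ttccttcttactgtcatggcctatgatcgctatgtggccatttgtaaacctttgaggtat
Olfr1508: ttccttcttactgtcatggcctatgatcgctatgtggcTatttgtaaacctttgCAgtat
Olfr1509: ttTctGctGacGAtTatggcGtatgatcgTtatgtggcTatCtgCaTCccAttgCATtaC
Olfr1510: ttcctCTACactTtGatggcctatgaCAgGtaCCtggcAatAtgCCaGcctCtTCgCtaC
Olfr1512: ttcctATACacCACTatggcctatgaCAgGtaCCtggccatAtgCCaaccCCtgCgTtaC
Olfr1513: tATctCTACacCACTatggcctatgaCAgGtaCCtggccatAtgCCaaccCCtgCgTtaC
In this window Olfr1508 differed from Olfr1507 at 3 bases, Olfr1509 at 18, Olfr1510 and Olfr1512 at 21 each and Olfr1513 at 23.

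Over the whole coding sequence, Olfr1507 and Olfr1508 were 93.0% identical, Olfr1510 and Olfr1511 97.3%, and Olfr1512 and Olfr1513 96.0%. Olfr1509 was 63.0% identical to Olfr1507 and 63.7% to Olfr1508. Between the families, identity was 53.5% to 57.5%. Of all coding windows of 50 bases, 17.9% in Olfr1507 were exact copies in Olfr1508, 53.9% in Olfr1510 were in Olfr1511, and 29.2% in Olfr1512 were in Olfr1513. No such window of Olfr1509 occurred in another receptor or receptor pseudogene. How reads with several possible origins were treated is not given in the sources used here, so the split of reads within each of these 3 pairs is uncertain and pair sums are given beside the single genes.

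**Figure D1:**
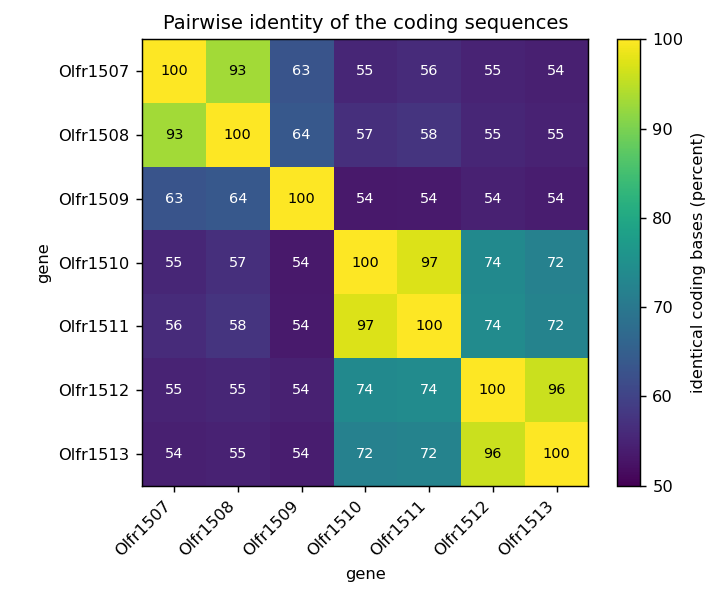
Pairwise identity of the 7 coding sequences, in percent of aligned bases (colour and number). The pairs Olfr1507 and Olfr1508, Olfr1510 and Olfr1511, and Olfr1512 and Olfr1513 stand at 93% to 97%, while Olfr1509 reaches at most 64% with any other member.

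The likeness of Olfr1507 and Olfr1508 runs into the start of their transcripts. The first 30 bases of the annotated Olfr1507 mRNA, at chr14:52495720-52495749, match a stretch just upstream of the annotated Olfr1508 start, at chr14:52467519-52467548, at 29 of 30 bases. These are shown because they hold a TAAT, the core of homeodomain sites such as those of Lhx2, in both genes, with the base that differs in capitals.
Olfr1507: cttggaaataaagccttgataatcCaggtg
Olfr1508: cttggaaataaagccttgataatcGaggtg
Over the 53 bases by which the annotated starts are offset, 51 were the same. The RefSeq table used (GRCm38.p6) holds a promoter for 5 of the 7 members, Olfr1507 and Olfr1512 not among them. The 216 bases before the annotated Olfr1508 start, at chr14:52467496-52467711 on the minus strand, are printed with TAAT or its reverse complement ATTA in capitals.
Olfr1508 upstream: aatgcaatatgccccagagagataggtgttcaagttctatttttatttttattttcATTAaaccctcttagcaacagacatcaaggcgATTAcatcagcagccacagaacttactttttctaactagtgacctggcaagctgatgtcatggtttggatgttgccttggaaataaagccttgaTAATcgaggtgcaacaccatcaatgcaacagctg
The window holds 3 such matches and none of CCCNNGGG, a pattern used here for Ebf-type sites and searched in the same window. The other promoters were cut to the same length from their upstream end, and not at a GENCODE start. Among 32851 promoters cut in this way, 52.0% held TAAT on either strand and 10.26% held CCCNNGGG. Among 944 receptor promoters the shares were 91.8% and 2.65%, and 64.2% held at least as many TAAT matches as Olfr1508. A match is a string of letters, not a measured site.

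The library depths inferred from the steps of the TPM values ranged from 7776792 to 12771079 reads, with the lowest in cKO late replicate 2. Mex3a, the deleted gene, stood at 108 ± 14.1 scaled TPM (SD, n = 2 here and below) in early WT, 88.6 ± 0.805 in late WT, 17.8 ± 4.69 in early cKO and 12.0 ± 1.56 in late cKO. It was lower in cKO by 2.55 (SE 0.178, limma adjusted p = 0.00457) on the log2 scale in early and by 2.79 (SE 0.178, limma adjusted p = 0.00282) in late polysomes. WT early replicate 2 carries the cKO genotype in its labels, against its title. Its Mex3a level of 118 scaled TPM lay with the WT libraries, it was kept as WT, and the members' differences that use it are given together without it further on. Markers of mature and immature olfactory neurons, basal, sustentacular, gland, respiratory ciliated and immune cells were detected in every library, except Cd3e, a T cell gene.

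Olfr1507 (ENSMUSG00000059887.7, chr14:52488791-52495749) was the most abundant member in WT. In TPM scaled between libraries, its 2 early WT libraries stood at 12.2 and 9.49, from 282 and 214 reads, and its late WT libraries at 18.2 and 19.4, from 390 and 435 reads. The early cKO libraries stood at 3.66 and 4.86, from 80 and 96 reads, and the late cKO libraries at 6.95 and 6.90, from 124 and 94 reads. Every cKO library lay below every WT library, also across fractions. The means were 10.8 ± 1.93 in early WT, 18.8 ± 0.857 in late WT, 4.26 ± 0.852 in early cKO and 6.93 ± 0.0392 in late cKO. Olfr1507 in cKO was thus at 39.3% of WT in early and at 36.8% in late polysomes, or −1.17 (SE 0.17) and −1.32 (SE 0.17) on the log2(scaled TPM + 1) scale, which understates differences of low genes.

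Olfr1508 (ENSMUSG00000057564.6, chr14:52458829-52467495), which encodes MOR10, was lower than Olfr1507 in scaled TPM in all 8 libraries. In early cKO, Olfr1508 had more reads than Olfr1507, 118 and 142 against 80 and 96. The lower TPM of Olfr1508 there rests on the lengths behind TPM. Its scaled TPM was 4.26 and 4.84 in early WT, 5.65 and 4.07 in late WT, 3.04 and 4.05 in early cKO and 2.40 and 3.43 in late cKO. In each fraction both cKO libraries lay below both WT libraries, but the early cKO library at 4.05 lay close to the late WT library at 4.07. The group means were 4.55 ± 0.406, 4.86 ± 1.12, 3.54 ± 0.715 and 2.91 ± 0.728 in the same order. The cKO level was 77.9% of WT in early (log2 −0.30, SE 0.23) and 59.9% in late polysomes (−0.58, SE 0.23). The early difference was −0.14 without cKO early replicate 1 and −0.46 without cKO early replicate 2, and the late one −0.39 without WT late replicate 1 or cKO late replicate 1. Summed over Olfr1507 and Olfr1508, whose reads may be split between them, cKO stood at 50.7% of WT in early polysomes, with sums of 7.81 ± 1.57 against 15.4 ± 1.52. In late polysomes the sums were 9.84 ± 0.688 against 23.7 ± 0.26, or 41.5%.

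Olfr1509 (ENSMUSG00000035626.4, chr14:52442990-52452574), which encodes MOR83, is the member with no near-identical copy. It stood at 4.27 and 3.47 scaled TPM in early WT, 2.98 and 3.30 in late WT, 1.92 and 2.50 in early cKO and 0.569 and 1.17 in late cKO. The late cKO values rest on 7 and 11 reads, against 44 to 68 in the WT libraries. All 4 cKO libraries lay below all 4 WT libraries. With means of 3.87 ± 0.565 and 2.21 ± 0.406, cKO was at 57.1% of WT in early polysomes (log2 −0.60, SE 0.25). In late polysomes the means were 3.14 ± 0.228 and 0.870 ± 0.425, which is 27.7% of WT (log2 −1.17, SE 0.25).

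Olfr1510 (ENSMUSG00000063106.6, chr14:52409131-52414373) and Olfr1511 (ENSMUSG00000063867.2, chr14:52389794-52397379) encode the most similar pair. Olfr1510 stood at 1.86 and 3.81 scaled TPM in early WT, 2.34 and 3.30 in late WT, 3.06 and 2.18 in early cKO and 2.67 and 2.45 in late cKO, on 14 to 36 reads. The genotypes overlapped in both fractions, and the cKO minus WT differences of −0.05 and −0.09 (log2, SE 0.29 each) were smaller than their errors. Olfr1511 stood at 2.96 and 3.17 in early WT, 3.49 and 4.65 in late WT, 3.57 and 3.62 in early cKO and 3.64 and 4.53 in late cKO, on 19 to 32 reads. Its early cKO libraries lay above the WT ones (log2 0.18, SE 0.20) and its late libraries overlapped (0.01, SE 0.20). The pair summed to 5.89 ± 1.53 in early WT and 6.21 ± 0.583 in early cKO, and to 6.89 ± 1.497 in late WT and 6.65 ± 0.468 in late cKO.

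Olfr1512 (ENSMUSG00000094140.2, chr14:52371332-52379168) and Olfr1513 (ENSMUSG00000095030.2, chr14:52347495-52356408), the pair farthest from Olfr1507, stood higher in cKO. Olfr1512 was at 2.26 and 3.56 scaled TPM in early WT, 1.41 and 3.05 in late WT, 4.87 and 6.72 in early cKO and 3.49 and 4.87 in late cKO, on 15 to 66 reads. In each fraction both cKO libraries were above both WT libraries, although early WT at 3.56 exceeded late cKO at 3.49. The differences were 0.80 (SE 0.31) in early and 0.72 (SE 0.31) in late polysomes on the log2 scale. The late difference rests on single WT libraries, being 0.34 without WT late replicate 1 and 1.09 without WT late replicate 2. The means were 2.91 ± 0.919 in early WT, 2.23 ± 1.16 in late WT, 5.80 ± 1.31 in early cKO and 4.18 ± 0.971 in late cKO.

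Olfr1513 was at 2.10 and 2.20 scaled TPM in early WT, 2.17 and 2.94 in late WT, 3.70 and 3.06 in early cKO and 4.05 and 3.40 in late cKO, on 43 to 75 reads. All 4 cKO libraries lay above all 4 WT libraries, by 0.47 (SE 0.21) in early and 0.42 (SE 0.21) in late polysomes on the log2 scale. The late difference was 0.26 without WT late replicate 1. The sum of Olfr1512 and Olfr1513 was 5.06 ± 0.988 in early WT against 9.18 ± 0.854 in early cKO, and 4.78 ± 1.71 in late WT against 7.90 ± 0.512 in late cKO. As a share of WT these sums were 181% and 165%.

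**Figure D2:**
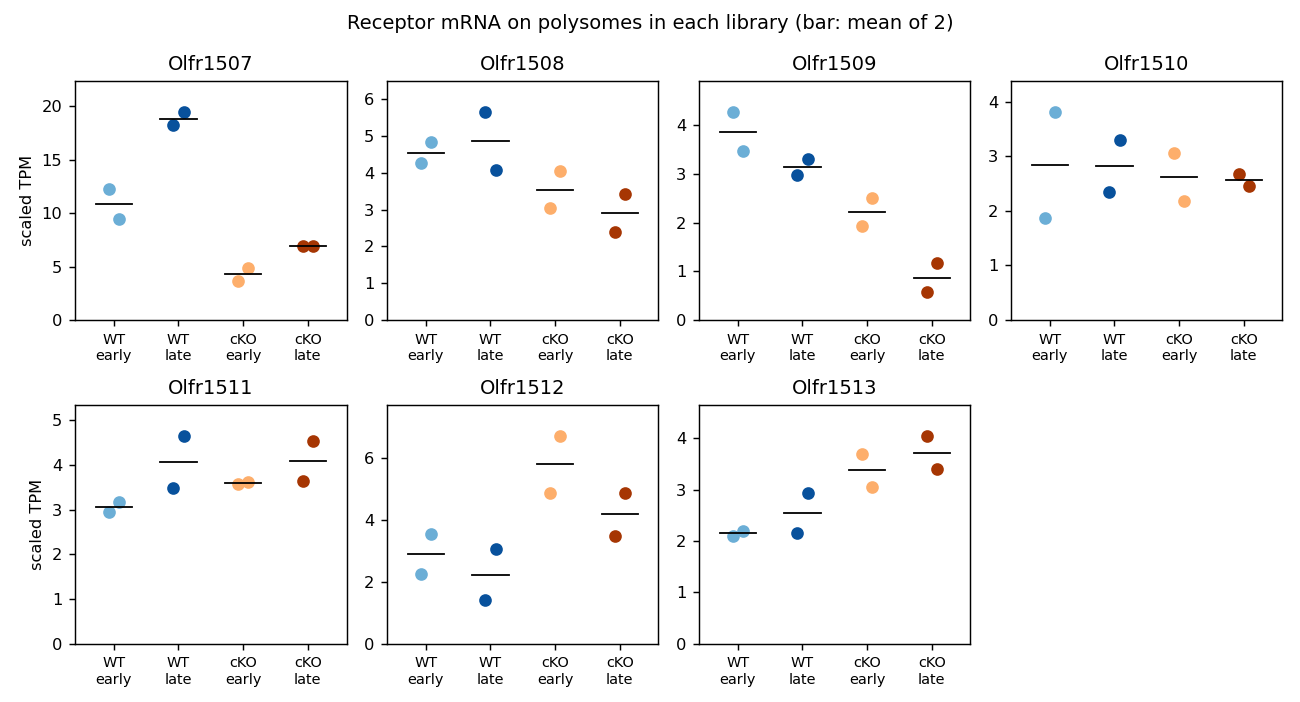
Scaled TPM (vertical axes, each starting at 0) of the 7 genes in each library; points are libraries in the order replicate 1 and 2, and bars are means of 2. Olfr1507 lies between 3.66 and 6.95 in cKO and between 9.49 and 19.4 in WT, and Olfr1513 is higher in every cKO library.

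Without WT early replicate 2, the early cKO minus WT differences on the log2 scale were −1.34 for Olfr1507, −0.22 for Olfr1508 and −0.72 for Olfr1509. They were 0.33 for Olfr1510, instead of −0.05, 0.22 for Olfr1511, 1.04 for Olfr1512 and 0.49 for Olfr1513, so that Olfr1510 alone took the opposite sign. The remaining early WT library had pair sums of 16.5 scaled TPM for Olfr1507 and Olfr1508, 4.82 for Olfr1510 and Olfr1511 and 4.36 for Olfr1512 and Olfr1513. Genes called between genotypes in early polysomes were 2 without that library, against 7 with it.

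Along the chromosome, the cKO minus WT difference was below 0 in both fractions for the 3 genes nearest to Olfr1507, Olfr1507 included, and for Olfr1510, whose values were near 0 and, like the late value of Olfr1511, took either sign when single libraries were left out. It was above 0 for Olfr1511, Olfr1512 and Olfr1513. The order was not strictly by distance, since Olfr1508 at 28.3 kb differed less than Olfr1509 at 52.8 kb and Olfr1512 differed more than Olfr1513. Family and position cannot be told apart here, because the MOR244 genes are the 3 at the Olfr1507 end.

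**Figure D3:**
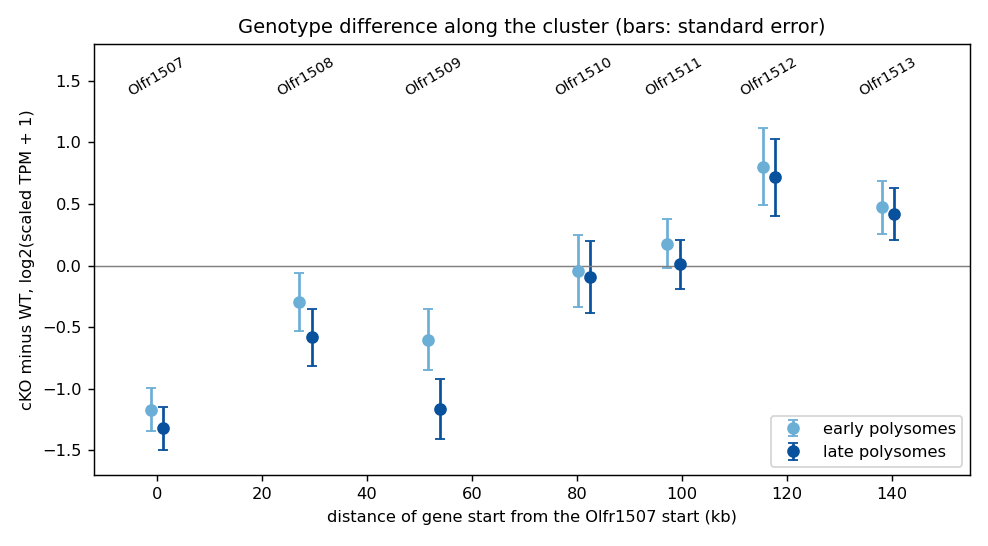
Genotype difference (cKO minus WT, log2(scaled TPM + 1), points with standard errors of the fit) against the distance of each gene start from that of Olfr1507 in kb, for early and late polysomes. Values run from −1.32 at Olfr1507 to 0.80 at Olfr1512.

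Across all genes tested with limma, 0.0435% were called between genotypes in early and 0.0124% in late polysomes, at a Benjamini-Hochberg adjusted p of at most 0.05. None of the 7 members was among them. At an unadjusted p under 0.05 the same fit held 3 members in early and 4 in late polysomes, beside 6.65% and 9.36% of all genes tested. Voom on inferred reads called Olfr1507 in both fractions, beside 0.0746% of 16085 genes (12) in early and 0.0933% (15) in late polysomes. In 3 members, Olfr1507, Olfr1508 and Olfr1509, all cKO libraries lay below all WT libraries within both fractions, as did 6.67% of all genes tested and 15.1% of the 857 other receptors tested (129 genes). In 2 members, Olfr1512 and Olfr1513, they all lay above, as did 6.57% of all genes and 6.65% of other receptors (57 genes). For the separation across fractions given for Olfr1507, Olfr1509 and Olfr1513, no share over all genes was computed. Since the members were picked with these values known, nothing is read from their counts.

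Among the 864 receptors tested, members included, Olfr1507 had the 14th lowest cKO minus WT difference in early polysomes and the 9th lowest in late polysomes. Olfr1509 ranked 63 and 15 from the lowest. Olfr1512 had the 9th highest difference in early and the 15th highest in late polysomes, so the cluster held genes near both ends of the receptor range. The median difference of the 7 members was −0.05 in early and −0.09 in late polysomes, beside medians of 0.01 and −0.11 over the 857 other receptors and 0.01 and 0.00 over all genes. The 26 other chromosome 14 receptors tested (Olfr720 to Olfr752, a separate group of genes) had medians of −0.09 and −0.31.

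**Figure D4:**
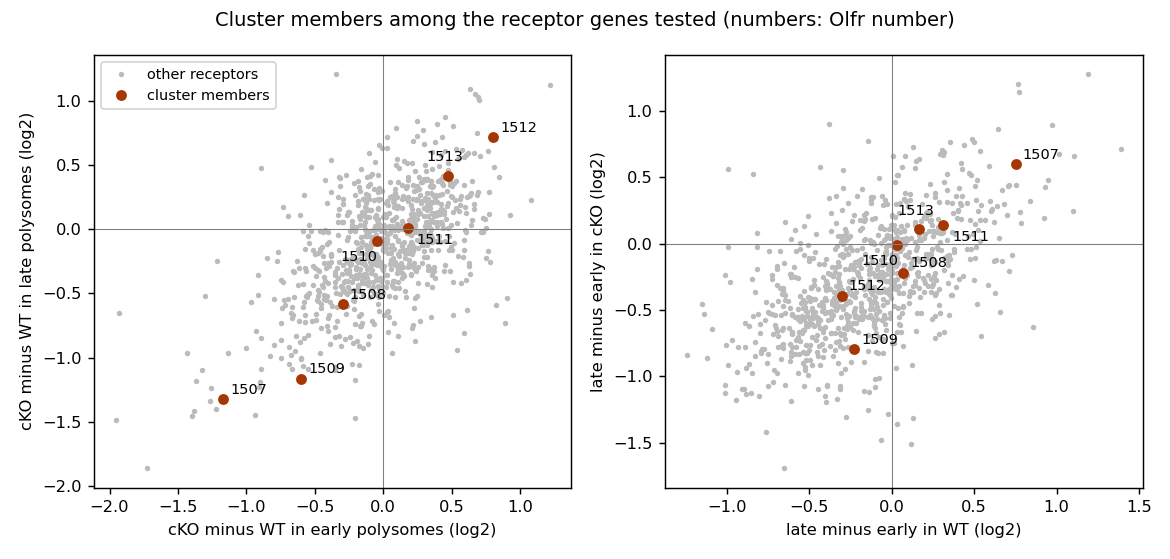
Each point is a receptor gene tested (grey, 857 others; coloured, the 7 members, labelled by Olfr number). Left, cKO minus WT in early against late polysomes; right, late minus early in WT against cKO, all as log2 differences. Olfr1507 and Olfr1509 lie at the low end and Olfr1512 at the high end of the genotype differences, and Olfr1507 lies high in late against early polysomes.

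By rank of TPM among the 1193 receptor genes, Olfr1507 was 9th and 35th in the 2 early WT libraries and 2nd and 3rd in the late WT libraries. In cKO it ranked 225 and 169 in early and 38 and 33 in late libraries. Over group means, Olfr1512 went the other way, from rank 355 in early WT to 97 in early cKO and from 431 to 105 in late polysomes. Olfr1509 ranked 219 and 500 in early and 246 and 793 in late polysomes in WT and cKO. The mean scaled TPM of a receptor tested was 2.34 at the median and 30.3 at the highest. TPM is per length, and the lengths that fit its steps (4784 bases for Olfr1507, 8503 for Olfr1508) exceed the GENCODE exon lengths of 2877 and 5791. The scale of these lengths was set on the genes that matched GENCODE, only 1318 of 19006 compared, so it is uncertain. Ranks between genes depend on an annotation that the sources used here do not give.

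Taking the summed TPM of all receptors as the whole, the 7 members made up 1.01% ± 0.107 in early WT, 1.48% ± 0.117 in late WT, 0.848% ± 0.00156 in early cKO and 1.10% ± 0.0807 in late cKO. Olfr1507 to Olfr1509 held 0.756% and 0.547% in the early WT libraries, 1.03% and 1.03% in late WT, 0.307% and 0.358% in early cKO and 0.435% and 0.497% in late cKO. Every cKO library lay below every WT library in this share. Olfr1510 to Olfr1513 held 0.334% and 0.392% in early WT, 0.362% and 0.534% in late WT, 0.542% and 0.489% in early cKO and 0.607% and 0.659% in late cKO. Here cKO exceeded WT within each fraction. Within the cluster, Olfr1507 supplied 40.8% and 31.1% of the members' TPM in early WT and 50.3% and 47.7% in late WT libraries, but 15.4% and 18.0% in early cKO and 29.2% and 25.8% in late cKO. Olfr1512 supplied the most in early cKO, 20.5% and 24.9%.

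**Figure D5:**
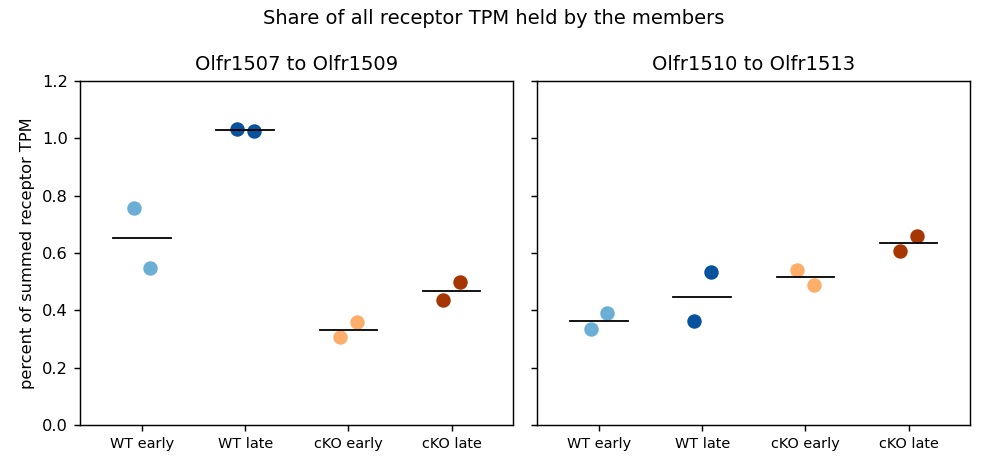
Percent of the summed TPM of all receptor genes held by Olfr1507 to Olfr1509 (left) and by Olfr1510 to Olfr1513 (right) in each library (points; bars are means of 2). The left share is 0.307% to 0.497% in cKO and 0.547% to 1.03% in WT, and the right share is 0.489% to 0.659% in cKO and 0.334% to 0.534% in WT.

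Between fractions, Olfr1507 was higher in late than in early polysomes in every lysate. The early and late library of a lysate share its name, and late minus early on the log2 scale was 0.54 and 0.96 in the 2 WT lysates and 0.77 and 0.43 in the cKO lysates. The fitted differences were 0.75 (SE 0.17) in WT and 0.60 (SE 0.17) in cKO. Without the pseudocount of 1, mean scaled TPM was 1.74 times as high in late as in early polysomes of WT and 1.62 times in cKO. Among the 864 receptors these ranked 17 and 26 from the highest, beside medians of the other receptors of −0.14 in WT and −0.29 in cKO. Olfr1509 went the opposite way, with −0.40 and −0.05 in WT lysates and −0.90 and −0.69 in cKO lysates, and fitted differences of −0.23 (SE 0.25) in WT and −0.79 (SE 0.25) in cKO.

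Of the other members, Olfr1512 was lower in late polysomes in all 4 lysates (−0.17 to −0.44), and Olfr1511 and Olfr1513 were higher in all 4 (0.02 to 0.44 and 0.03 to 0.30). Fitted differences ranged from −0.30 (SE 0.31, Olfr1512) to 0.31 (SE 0.20, Olfr1511) in WT and from −0.39 (SE 0.31) to 0.14 (SE 0.20) in cKO. Olfr1508 and Olfr1510 were higher in late polysomes of some lysates and lower in others. Without WT early replicate 2, late minus early in WT was 0.14 for Olfr1508, −0.35 for Olfr1509, 0.41 for Olfr1510, 0.35 for Olfr1511, −0.06 for Olfr1512 and 0.19 for Olfr1513. Leaving out WT late replicate 1 turned the WT sign of Olfr1512 (0.07) and Olfr1508 (−0.128). Leaving out WT early replicate 1 turned that of Olfr1510 (−0.34) and Olfr1508 (−0.007), and leaving out WT late replicate 2 that of Olfr1510 (−0.15). In cKO, Olfr1510 turned from −0.011 to 0.165 without cKO early replicate 1 and to 0.034 without cKO late replicate 2. In limma, late polysomes of WT held 27.1% of all genes called higher and 27.7% called lower, and those of cKO 28.9% and 29.2%. Among the members, Olfr1507 was called higher in both genotypes and Olfr1509 lower in cKO. The Olfr1507 call in WT was lost without WT early replicate 2 (0.58), and in cKO without cKO early replicate 1 (0.43), cKO late replicate 1 (0.59) or cKO late replicate 2 (0.60). The Olfr1509 call was lost without cKO early replicate 2 (−0.66) or cKO late replicate 1 (−0.56).

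The interaction, the late minus early difference in cKO less that in WT, was below 0 in all 7 members, from −0.04 (SE 0.41, Olfr1510) to −0.56 (SE 0.35, Olfr1509). It was −0.15 (SE 0.25) for Olfr1507, and 0.01 without WT early replicate 2, where the other 6 ranged from −0.08 (Olfr1513) to −0.45 (Olfr1509). Over the alternatives run, each library left out in turn included, Olfr1508, Olfr1509 and Olfr1511 stayed below 0, while Olfr1510 reached 0.33 (without WT early replicate 1), and Olfr1512 0.29 and Olfr1513 0.10 (both without WT late replicate 2). The members' median of −0.15 stood beside −0.13 over the 857 other receptors, of which 565 were below 0. In limma 0.00621% of all genes and no member were called, and no member had an unadjusted p under 0.05, beside 2.85% of all genes. Voom called 0% of 16085 genes.

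Over the 8 libraries, log2 levels of Olfr1508 and Olfr1509 correlated at r = 0.82, Olfr1507 and Olfr1512 at −0.82, Olfr1508 and Olfr1513 at −0.91 and Olfr1509 and Olfr1513 at −0.86. Within pairs that may share reads, r was 0.62 for Olfr1507 and Olfr1508, 0.23 for Olfr1510 and Olfr1511 and 0.62 for Olfr1512 and Olfr1513. These values describe 8 libraries that share lysates and groups. The receptors with levels most like Olfr1507 over the same libraries, among 96 with a mean scaled TPM of at least 5, were Olfr536 (r = 0.93), Olfr1301 (0.92) and Olfr726 (0.88). Olfr536, the most abundant of these, averaged 29.5 scaled TPM in early WT, 42.7 in late WT, 22.3 in early cKO and 26.5 in late cKO. Among 12704 other genes they were Pcdh9, a protocadherin (0.97), Nefl, the neurofilament light chain (0.97), and Camk2g, a calcium- and calmodulin-dependent kinase subunit (0.96). Nefl averaged 8.64, 18.1, 1.66 and 5.08 scaled TPM in the same order of groups. For the sum of the 7 members, the closest were Olfr536 (0.95), Olfr1301 (0.89) and Olfr286 (0.85), and Csrnp3, Tnrc6a (0.94 each) and Camk2g (0.93).

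The genes outside the receptor family that flank the cluster are given for comparison with its end genes. Sall2, a zinc finger gene 18.7 kb beyond Olfr1513, differed between genotypes by 0.02 (SE 0.17) in early and −0.14 (SE 0.17) in late polysomes, at 6.40 to 14.6 scaled TPM. Dad1, an oligosaccharyltransferase subunit gene and the nearest on the other side with a row in the table, at 1739.7 kb, differed by 0.21 (SE 0.12) and −0.01 (SE 0.12).

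Of the 13 regulators of receptor choice listed for comparison, none was called between genotypes, and differences ran from −0.28 to 0.19 in early and −0.14 to 0.18 in late polysomes. Lhx2, the homeodomain factor of receptor enhancers, differed by 0.19 (SE 0.11) and 0.18 (SE 0.11), Ldb1, its partner, by −0.05 and 0.13 (SE 0.10), and Ebf1 by −0.02 and −0.06 (SE 0.11). Between fractions, 5 of the 13 were called higher in the late fraction of WT and 3 lower, and 7 and 3 in cKO. Lhx2 was lower there, by −0.80 in WT and −0.81 in cKO. Of the 3 genes that aid receptor export to the cell surface, Rtp1 and Rtp2 were called higher in late polysomes of WT (0.64 and 0.70, SE 0.12 and 0.10) and Reep1 lower (−0.46, SE 0.12). In cKO, Rtp1 was called higher (0.32, SE 0.12) and Reep1 lower (−0.45, SE 0.12), and Rtp2 stood at 0.25 (SE 0.10). None of the 3 was called between genotypes or in the interaction. Of 12 odorant transduction genes, 7 were called higher and 3 lower in the late fraction of each genotype, and none between genotypes. Adcy3, the adenylyl cyclase that makes the odorant cAMP signal, was higher in late polysomes by 1.45 in WT and 1.72 in cKO (SE 0.17).

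Genes that mark the zones of the epithelium are given because MOR28 neurons are ventral. Ncam2, a cell adhesion gene of the ventral zone, averaged 67.7 scaled TPM in early WT, 96.7 in late WT, 44.6 in early cKO and 63.2 in late cKO. Its cKO minus WT differences were −0.61 and −0.60 (SE 0.19), not called. Nfia and Nfib, nuclear factor genes of the ventral zone, differed by −0.10 to 0.01 and the dorsal genes Nqo1 and Acsm4 by −0.21 to 0.09. None of the 2 dorsal or 4 ventral genes was called between genotypes. Summed levels of the 4 ventral genes were 389 to 400 scaled TPM in early WT against 361 to 363 in early cKO, and 442 to 451 against 392 to 438 in late polysomes. Ncam2 differed most of these 4 genes, which had median differences of −0.08 in early and −0.01 in late polysomes. Their part in the differences of Olfr1507 to Olfr1509 was not tested.

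Summed markers of mature olfactory neurons, 6 genes all detected, were 9965 to 12288 scaled TPM in early WT and 10940 to 11118 in early cKO, and 7097 to 7364 in late WT and 6028 to 7055 in late cKO. Immature neuron markers, 5 of 5 detected, were 2184 to 2195 in early WT and 2035 to 2036 in early cKO, and 2561 to 2741 against 2365 to 2367 in late polysomes. Sustentacular markers, 5 of 5, were 1954 to 2205 and 1571 to 2226 in early, and 5439 to 5849 and 5887 to 6322 in late polysomes of WT and cKO, and 5 of 5 were called higher in the late fraction of each genotype. The ventral and immature neuron sums did not overlap between genotypes in either fraction, nor did the mature neuron and sustentacular sums in late polysomes. Of all genes tested, 6.67% had every cKO library below every WT library within both fractions, and 6.57% had them above. These shares are for single genes apart in both fractions. No share was computed for sums or for a separation in a single fraction, which is less strict. Summed immune cell markers, 4 of 5 detected in every library, did not overlap in either fraction. They were 131 to 141 in early WT against 188 to 199 in early cKO, and 105 to 107 against 132 to 156 in late polysomes. Lyz2, a lysozyme gene of myeloid cells named after its values were seen, made up most of this, with means of 82.5 in early WT and 133 in early cKO, and 63.6 and 93.5 in late polysomes. Respiratory ciliated cell markers, 3 of 3, did not overlap either, with early sums of 194 to 196 for WT against 199 to 203 for cKO, and late sums of 182 to 191 against 196 to 208. These markers did not move together. In early and late polysomes Foxj1 differed by 0.09 and 0.29 and Dnah5 by 0.37 and 0.07, but Tekt1 by −0.15 and −0.08. Sums for globose basal and progenitor cells and for horizontal basal cells overlapped between genotypes in both fractions. Bowman's gland sums were lower in early cKO, at 4532 to 4825 against 4861 to 5977 in early WT. In late polysomes they were higher in cKO, at 4407 to 4798 against 4086 to 4366 in WT. No marker of these lists was called between genotypes. Their part in the receptor differences was not tested.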

How the data were processed

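The deposited table gives TPM (transcript abundance per length, scaled to a sum of 1000000 in each column) for 21765 gene symbols, made by the authors from stranded low-input total RNA libraries. The submitters' processing notes list FastQC, cutadapt, STAR, DESeq2 and the mm10 genome without saying how TPM was made, and the annotation and counting are not given in the sources used here. The Cre line is not reported here. Columns were matched to samples by name, and groups came from sample titles.

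TPM was scaled by median ratios, and log2(scaled TPM + 1) of the 16097 genes with a mean TPM of at least 1 was fitted with limma 3.58.1 in R 4.3.3 (empirical Bayes, mean-variance trend), the 4 groups together, two-sided, with Benjamini-Hochberg adjustment and a threshold of 0.05. The members and the gene lists were chosen with earlier results of these data known. Other genes were named by rule: the targeted gene, the flanking genes, the 3 receptors and 3 other genes most correlated with Olfr1507 and with the members' sum, and the first genes of each list.

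Whole reads were inferred from TPM steps for 19783 of 19783 genes above 0 in at least 2 libraries (100%, tolerance 0.001). Both steps were run on simulated data, with outcomes not given here. Changed genes in the simulated fit were drawn from genes with more reads than several members have, so it does not cover those members. The early and late libraries of a genotype and number share a lysate name and are paired by it, and their deviations from group means correlated at 0.0863 in WT and 0.0502 in cKO. For WT and cKO libraries of the same number the correlations were 0.332 in early and 0.143 in late polysomes. Alternatives were a pseudocount of 0.1, no filter, a mean TPM of at least 5, unscaled TPM, voom on inferred reads, replicate blocks and leaving out each library. Sequences and positions came from GRCm38 with GENCODE, names and promoters from RefSeq (GRCm38.p6). Figures were drawn with matplotlib 3.10.9.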

Additional observations from a re-analysis of the deposited data

How the results depend on the processing

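Of 460 recomputed differences of the members, 449 kept both call and sign, or changed sign uncalled while moving by less than their standard error. Sizes were not compared where the sign held. Part of this count was fixed beforehand. Leaving out a library outside a comparison, dropping the filter or adding the replicate block returned the same difference, so only its call could change. Few genes of any kind were called between genotypes or in the interaction, so a kept call says little there. With voom, cKO minus WT of Olfr1509 in late polysomes went from −1.17 to −1.93, and its late minus early in cKO from −0.79 to −1.41. None of the called differences reversed. With the replicate block, by lysate or by number, the members called were again 1 in WT late against early, 2 in cKO and 0 in the other comparisons, and the genes called were 8660, 9245, 7, 2 and 1 (late against early in WT and cKO, genotype in early and late, interaction). The block thus changed no member's call. Genes called between genotypes in early polysomes were 7, against 11 with no filter, 4 with a mean TPM of at least 5 and 12 with voom. In late polysomes they were 2, against 1 with a pseudocount of 0.1, 4 with no filter, 1 with a mean TPM of at least 5 and 15 with voom. In the interaction, 1 gene became 6 with no filter, 0 with a mean TPM of at least 5 and 0 with voom. Voom called 1 member, Olfr1507, in early (−1.35) and in late polysomes (−1.44). A mean TPM of at least 5 left only Olfr1507 to be tested, so 1 member was called in late against early in cKO. Leaving out each library gave 5874 to 8968 genes in late against early in WT, with 0 to 1 members called, and 6860 to 9078 in cKO, with 0 to 2 members called. It gave 0 to 9 genes between genotypes in early and 0 to 13 in late polysomes, 1 to 7 in the interaction, and 0 members in these 3. For changes in counts, apart from those that follow from fewer genes tested or fewer libraries, the cause was not tested. Depth limits Olfr1509 in cKO late, at 7 to 11 reads, and Olfr1510 and Olfr1511, at 14 to 36 reads a library.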
